A study of Homo sapiens with 6 samples.

Results

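The ROR and REV-ERB genes of the circadian clock expressed in HEK293 cells were RORA, RORB, NR1D1 (REV-ERBα) and NR1D2 (REV-ERBβ). These 4 genes were picked by name from 58395 genes counted in each library, and all 4 were among the 17261 genes that passed the filter on low counts. Their values in the comparison of NOCT with control lines were part of why they were picked, since the low level of RORB and of NR1D2 was known from earlier results of these data. The difference of each between the groups is therefore given as a description, and its place among all genes is stated once without being read as a test.

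HEK293 is a cell line from human embryonic kidney. The study compared 3 clonal HEK293 lines that overexpress NOCT Δ(2-15)-3F, nocturnin lacking residues 2 to 15, with 3 clonal lines that overexpress GST-3F as the control protein. Nocturnin is a phosphatase whose mRNA cycles with the clock in several tissues. The lines are numbered as in the labels: 2, 8 and 9 for GST, and 4, 11 and 12 for NOCT. Each line is a clone, each gave 1 library, and both groups carry a tagged transgene. Cells grew for 3 days on 2 dishes per line, with no step that sets the phase of the clock in the labels, so a level is an average over the culture. In bulk RNA, fewer cells that express a gene and less RNA per cell cannot be told apart.

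RORs and REV-ERBs are nuclear receptors that bind the same DNA element, a half-site preceded by an A/T-rich stretch, with opposite action. RORs recruit coactivators and raise transcription of targets such as ARNTL, which encodes the clock activator BMAL1, while REV-ERBs bind heme and recruit the NCoR and HDAC3 corepressor complex to lower it. BMAL1 with CLOCK in turn activates the REV-ERB genes through E-boxes, which closes a loop beside that of the PER and CRY proteins. RORB is known mainly from retina, pineal gland and cortical neurons, whereas RORA is broadly expressed.

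The 6 libraries held 19729745 to 24422406 counts in genes. The row for the GST construct held 88, 46 and 50 counts in GST lines 2, 8 and 9 and 1, 0 and 0 in NOCT lines 4, 11 and 12. The row for the NOCT construct held 74, 46 and 82 counts in NOCT lines 4, 11 and 12 and 4, 7 and 3 in the GST lines, so each library carried the construct of its label. All 12 HEK293 marker genes had a mean of at least 1 CPM (read counts scaled to library size), NEFM only through 137 reads in NOCT 12 against 4 to 9 in the other lines. Of the 11 that were tested, 0 were called by edgeR and 6 had an unadjusted p under 0.05, beside 13.9% of all genes. KRT8 (1.11), KRT18 (0.63) and EYA1 (0.99) were higher and PAX2 (-2.13) lower in every NOCT line than in every GST line, as log2 fold changes of NOCT minus GST. The part of this marker list in the receptor values was not tested. A mean of at least 1 CPM was reached by none of 7 blood markers (CD3E and HBB were at 0 in every line). It was reached by 1 of 7 fibroblast and endothelial markers (COL1A2 was at 0) and by 1 of 8 retina and pineal markers (ARR3 was at 0).

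The promoter windows of the members are shown for the pair of genes whose lines did not overlap between the groups, RORB and NR1D2, and for the shared target ARNTL. The windows are RefSeq entries on GRCh38.p14, from 250 bases before to 50 bases after a transcript start. Capitals mark matches of 6 motifs searched on both strands: the half-site AGGTCA, its direct repeat with 2 bases between, the ROR response element, which is AANT followed directly by AGGTCA or by GGGTCA (the form with AGGTCA contains the half-site), the E-box CACGTG and the D-box TTATGTAA. The RORB window is chr9:74497085-74497384, the second NR1D2 window is chr3:23945871-23946170, and the ARNTL stretch, the last 100 bases of its second window, is chr11:13277740-13277839, all on the plus strand.
RORB: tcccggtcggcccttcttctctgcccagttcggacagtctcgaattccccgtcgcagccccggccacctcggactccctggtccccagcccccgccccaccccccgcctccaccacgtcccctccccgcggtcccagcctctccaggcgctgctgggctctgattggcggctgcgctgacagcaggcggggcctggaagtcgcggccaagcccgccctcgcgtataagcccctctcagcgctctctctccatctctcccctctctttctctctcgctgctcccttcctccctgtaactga
NR1D2: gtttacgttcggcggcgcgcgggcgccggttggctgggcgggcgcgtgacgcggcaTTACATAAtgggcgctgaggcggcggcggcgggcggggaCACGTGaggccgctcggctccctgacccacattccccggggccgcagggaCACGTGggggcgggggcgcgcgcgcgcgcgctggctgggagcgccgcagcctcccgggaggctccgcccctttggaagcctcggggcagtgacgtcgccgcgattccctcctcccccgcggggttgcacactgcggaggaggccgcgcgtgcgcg
ARNTL: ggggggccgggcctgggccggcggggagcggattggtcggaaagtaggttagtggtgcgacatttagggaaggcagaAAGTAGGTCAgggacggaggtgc
The NR1D2 window held the E-box at positions -155 and -105 from the start and, on the minus strand, the D-box at -194 (read as TTACATAA on the plus strand). CACGTG was in 7.26% of 35116 promoter windows and TTATGTAA in 0.886%. ARNTL held AAGTAGGTCA at position 28 after its start, a match of the ROR response element whose form with AGGTCA was in 0.168% of windows. The RORB window held none of the 6 motifs, nor did the 4 windows of the members not printed: the second of RORB (chr9:74615284-74615583), the first of NR1D2, and those of RORA (chr15:60627481-60627780, minus strand) and NR1D1 (chr17:40100540-40100839, minus strand). A match is a run of letters and not a measured binding site, and these windows need not be the starts used in these cells.

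RORB, the ROR of retina and cortex, differed most between the groups among the 4 receptors. It lies at chr9:74497365-74693177 on the plus strand of GRCh38, with 11 merged exons that span 195.8 kb. Its level in TPM (reads scaled to gene length and library size) was 7.48, 7.94 and 5.57 in GST lines 2, 8 and 9. In NOCT lines 4, 11 and 12 it was 0.304, 0.984 and 0.607 TPM. Every NOCT line was below every GST line, and the lowest GST line was several times the highest NOCT line. GST lines averaged 6.996 ± 1.26 TPM and NOCT lines 0.632 ± 0.341 TPM (SD, 3 lines a group). Behind the NOCT values stood 24, 71 and 41 reads, with 95% exact Poisson intervals of 15.4 to 35.7, 55.5 to 89.6 and 29.4 to 55.6 that cover counting error only, against 506, 564 and 391 reads in the GST lines. The edgeR log2 fold change, NOCT minus GST, was -3.55 ± 0.38 (SE), or 11.7-fold higher in GST lines, the 19th lowest of the 17261 genes. In the authors' deposited table, whose fold changes are shrunken, the log2 value was -2.40. It was also smaller, at -2.30, on log2(TPM + 1) with limma. The marker list of cortical neurons summed to 6.29 to 11.1 TPM in GST and 1.34 to 6.21 TPM in NOCT lines, with 3 of 8 genes at a mean of at least 1 CPM and none at 0 in every line. Retina and pineal markers summed to 1.14 to 1.42 and 1.27 to 2.73 TPM. The part of either list in the RORB difference was not tested.

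RORA, the broadly expressed ROR, was at 5.01, 4.74 and 4.42 TPM in GST lines 2, 8 and 9 and at 4.95, 5.06 and 5.03 TPM in NOCT lines 4, 11 and 12. The groups overlapped, and the log2 fold change was -0.00 ± 0.11 (SE). RORA is the longest of the 4 genes (chr15:60488284-61229319, minus strand, 741.0 kb, 24 merged exons).

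NR1D2 was the most abundant of the 4 receptors in every line. It lies at chr3:23945260-23980618 on the plus strand and has 10 merged exons. Its level was 30.8, 34.3 and 31.9 TPM in GST lines 2, 8 and 9 and 25.3, 26.7 and 24.3 TPM in NOCT lines 4, 11 and 12. All 3 NOCT lines were below all 3 GST lines, by a margin far smaller than for RORB. GST lines averaged 32.3 ± 1.82 TPM and NOCT lines 25.4 ± 1.21 TPM (SD, 3 lines a group). The log2 fold change was -0.43 ± 0.09 (SE), 1.35-fold higher in GST lines. With library sizes taken from spike-in RNA the value was -0.28, a scaling that moved the median of all genes to 0.15. The authors' deposited table gave -0.41.

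NR1D1, the other REV-ERB, was at 6.80, 6.97 and 9.36 TPM in GST lines 2, 8 and 9 and at 7.59, 8.92 and 7.74 TPM in NOCT lines 4, 11 and 12. Its groups overlapped, and the highest and the lowest values were both in GST lines. The log2 fold change was -0.02 ± 0.20 (SE). NR1D1 (chr17:40092787-40100725, minus strand, 8 merged exons) shares 263 exonic bases, 9.49% of its exonic length, with THRA on the opposite strand. The libraries were made with a strand-specific kit, and whether the counting used the strand is not given in the sources used here, so reads of that stretch are uncertain between the 2 genes.

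**Figure D1:**
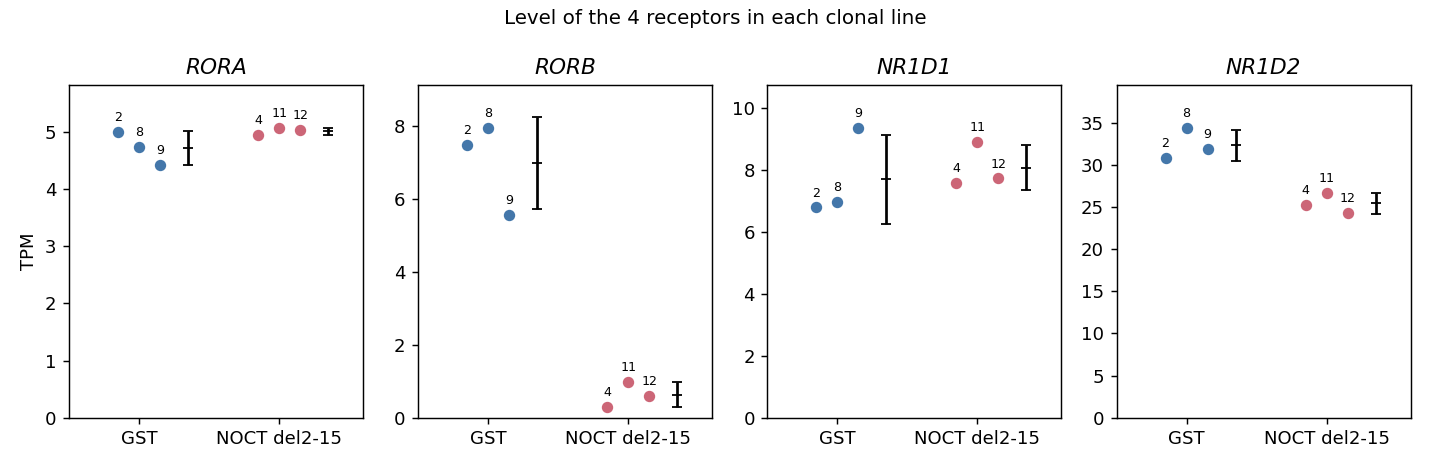
Level of each receptor in TPM (vertical axes, each starting at 0) in the 3 GST and 3 NOCT lines, with points numbered by line and bars for the group mean ± SD. RORB sits at 5.57 to 7.94 TPM in GST lines and 0.304 to 0.984 TPM in NOCT lines, NR1D2 is lower in all 3 NOCT lines, and the groups overlap for RORA and NR1D1.

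Genes were called by edgeR's quasi-likelihood test, with p-values adjusted by Benjamini-Hochberg over all genes and a threshold of 0.05. Of all 17261 genes tested, 10 were called (0.0579% in either direction, 0.0348% lower), and RORB was 1 of them, as the only one of the 4 receptors. For 2 of the 4, RORB and NR1D2, all NOCT lines were below all GST lines, beside 9.54% of all genes tested (20% without overlap in either direction). In the authors' deposited table the same pair had an adjusted p below 0.05, as did 2.87% of the 17002 genes with one. The members were chosen with these values known, so these counts are set by the choice and nothing is read from them. RORB was called in 13 of the 17 alternatives. It lost its place among the called genes when GST 2, GST 8, GST 9 or NOCT 11 was left out. In that order, those fits called 5 of 17808, 6 of 17750, 0 of 17897 and 1 of 17628 genes tested. The RORB log2 fold change was -4.03 to -3.19 over the 6 fits that leave out 1 line. NR1D2 was called in 3 of the 17 alternatives: DESeq2, no filter beyond 1 count, and without NOCT 12. These settings called 3.41%, 2.57% and 5.42% of all genes tested. The values of RORA and NR1D1 changed sign between alternatives.

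The order of levels among the receptors differed between the groups at RORB. In GST lines NR1D2 was highest, NR1D1 (6.80 to 9.36 TPM) and RORB (5.57 to 7.94 TPM) overlapped, and RORA (4.42 to 5.01 TPM) was below both. In NOCT lines the order was NR1D2, NR1D1, RORA and RORB, with no overlap between neighbours in that order. RORB made up 59.4% ± 3.48 of the summed ROR TPM across the GST lines but 10.9% ± 5.24 across the NOCT lines (SD, 3 lines a group). RORA and RORB summed to 11.7 ± 1.501 TPM in GST and 5.65 ± 0.400 TPM in NOCT lines, and the 2 REV-ERBs to 40.05 ± 2.11 and 33.5 ± 1.88 TPM. The ratio of summed REV-ERB to summed ROR mRNA was 3.01 to 4.13 in GST lines and 5.68 to 6.26 in NOCT lines. These sums weigh mRNA only and follow from the member values above. The order, shares and ratios also rest on the 1 length per gene behind TPM, 17040 bases for RORA and 9591 for RORB. In reads, RORA was above RORB in every GST line, with 602, 598 and 552 against 506, 564 and 391 in lines 2, 8 and 9. Which transcripts these cells use was not tested.

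**Figure D2:**
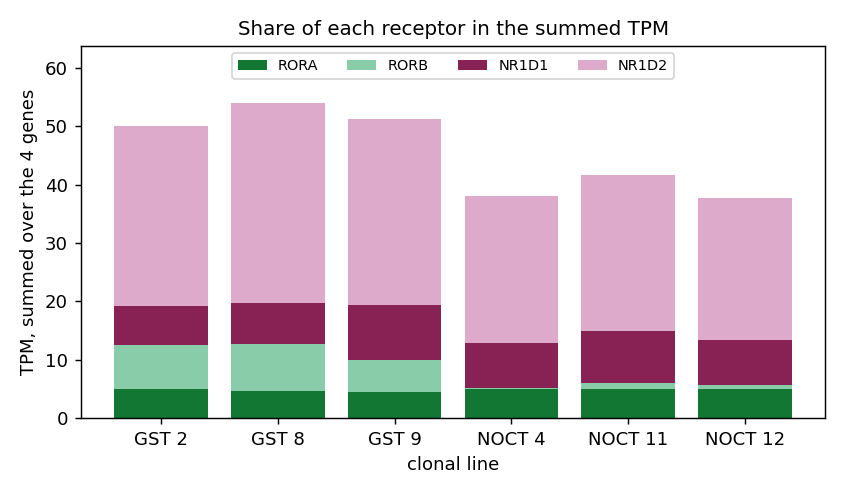
Stacked TPM of the 4 receptors (vertical axis, from 0) in each of the 6 clonal lines. The RORB segment is a small part of the NOCT bars, while the RORA segment is of like height in all 6 lines.

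Among NOCT lines RORB varied most of the 4 receptors. The highest NOCT line was 3.23 times the lowest in RORB TPM, against 1.176 times for NR1D1, 1.10 for NR1D2 and 1.02 for RORA. Among GST lines RORB (1.43 times) and NR1D1 (1.38 times) were alike. The SD of log2 CPM of RORB was 0.88 among NOCT lines and 0.27 among GST lines. Each receptor was set beside the 500 genes nearest to it in mean log2 CPM over all lines. Of these, 94.2% had a lower SD than RORB among NOCT lines and 64.2% among GST lines. RORB averaged 2.06 CPM in NOCT and 24.0 CPM in GST lines, so these genes matched its level in neither group. Its spread beside genes of its own level in each group was not tested. On log2 CPM, NR1D2 had among the smallest spreads for its level in GST lines, with an SD of 0.02 and 2.8% of the like genes below it. In NOCT lines the NR1D2 SD was 0.07, and 17.6% of like genes were lower. In TPM the order did not hold: the highest NR1D2 line was 1.11 times the lowest among GST and 1.10 times among NOCT lines. NR1D1 had an SD of 0.26 among GST and 0.15 among NOCT lines, beside medians of 0.20 and 0.24 for genes of like level.

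Each receptor was also set beside the 50 nearest tested genes on each side that had a mean of at least 1 CPM. Around RORB, a window of 54.0 Mb, the median neighbour was 0.21, 0.17 and 0.13 above its mean over the 6 lines (log2 CPM) in GST lines 2, 8 and 9. In NOCT lines 4, 11 and 12 the neighbour median was at -0.36, 0.12 and -0.27. RORB itself was at 2.01, 1.98 and 1.53 in the GST lines and at -2.79, -1.05 and -1.68 in the NOCT lines. The neighbour median was thus lower in all 3 NOCT lines than in the GST lines, by least in NOCT 11. No neighbour of the 100 had a log2 fold change below that of RORB, the lowest being -0.99, and with the neighbours' level taken as an offset the RORB value was -3.26. The part of the region's level in the RORB difference was not tested beyond this value. The nearest tested genes at that level outside the RORB span were TRPM6, a magnesium channel gene, and ANXA1 (annexin). TRPM6, at 29.3 kb after RORB, had a log2 fold change of -0.29 ± 0.34 (SE, adjusted p = 0.742, edgeR). ANXA1, at 1327.0 kb before RORB, had 1.17 ± 0.55 (SE, adjusted p = 0.399, edgeR). Both were chosen for their position.

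Around NR1D2 the neighbour medians of the groups overlapped: they were at 0.10, -0.08 and -0.06 in GST lines 2, 8 and 9 and at 0.11, 0.10 and -0.11 in NOCT lines 4, 11 and 12. Of those 100 neighbours, 6 had a log2 fold change below that of NR1D2, and the NR1D2 value with the neighbour offset was -0.48. For RORA and NR1D1 the same offset gave -0.06 and -0.04.

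**Figure D3:**
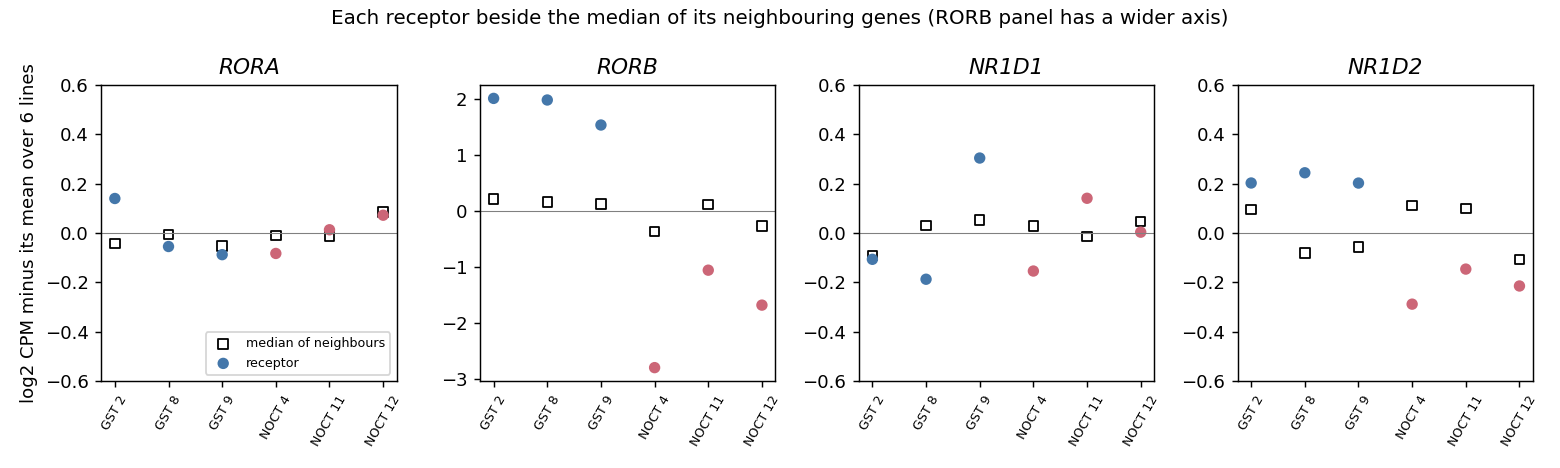
Log2 CPM minus its mean over the 6 lines (vertical axis; the RORB panel has a wider range) for each receptor (filled points) and for the median of its 100 neighbouring tested genes (open squares) in each clonal line. RORB lies 1.40 to 1.81 above its neighbours in GST lines and between -2.43 and -1.17 relative to them in NOCT lines.

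The antisense gene RORB-AS1 lies on the minus strand (chr9:74485551-74499127), starts inside the RORB span and runs across the start of RORB, sharing none of its exonic bases. It had 6, 13 and 11 reads in GST lines 2, 8 and 9 and 0, 5 and 0 in NOCT lines 4, 11 and 12. All its NOCT lines were below all its GST lines, as for RORB, but it was too low for the filter. In the edgeR fit without that filter its log2 fold change was -2.64 ± 0.80 (SE, adjusted p = 0.0672), which missed the threshold. RORA-AS1, antisense to RORA, had 7, 5 and 3 reads in GST and 8, 7 and 8 in NOCT lines, and RORA-AS2 had 1 read, in NOCT 12. The thyroid hormone and retinoic acid receptor genes that lie near the REV-ERBs did not pass in edgeR over the 6 lines. THRA, next to NR1D1, had a log2 fold change of -0.33 ± 0.11 (SE, adjusted p = 0.263, edgeR), and RARA 0.03. THRB, next to NR1D2, had -0.21, and RARB -1.11 ± 0.56, with 9.78, 14.1 and 9.38 TPM in GST and 1.87, 3.49 and 10.6 TPM in NOCT lines, of which NOCT 12 lay among the GST values. RARB was called with no filter on low counts and without NOCT 12, where its value was -2.16.

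Among 48 nuclear receptor genes, 38 were tested, of which 34 were not members. NR1D2 had the highest mean TPM of all 48 in GST lines and rank 4 in NOCT lines. RORB moved from rank 20 to rank 35, while NR1D1 went from 18 to 17 and RORA from 24 to 21. Of the 34 others, 0 were called by edgeR and 8 had an unadjusted p under 0.05, beside 13.9% of all genes, with 17 positive and 17 negative log2 fold changes and a median of -0.04 beside 0.00 for all genes. The receptor ESRRG, an orphan receptor of energy metabolism, had the smallest p among them: it was at 3.05, 0.470 and 1.00 TPM in GST lines and 0.0223, 0.110 and 0.0130 TPM in NOCT lines, with -5.04 ± 0.93 (SE, adjusted p = 0.110, edgeR). NR3C1, the glucocorticoid receptor, was at 27.8, 31.2 and 26.9 TPM in GST and 43.8, 39.4 and 35.5 TPM in NOCT lines, with 0.38 ± 0.09 (SE, adjusted p = 0.166, edgeR). Both had groups that did not overlap, as did 20% of all genes tested, and neither passed the threshold.

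**Figure D4:**
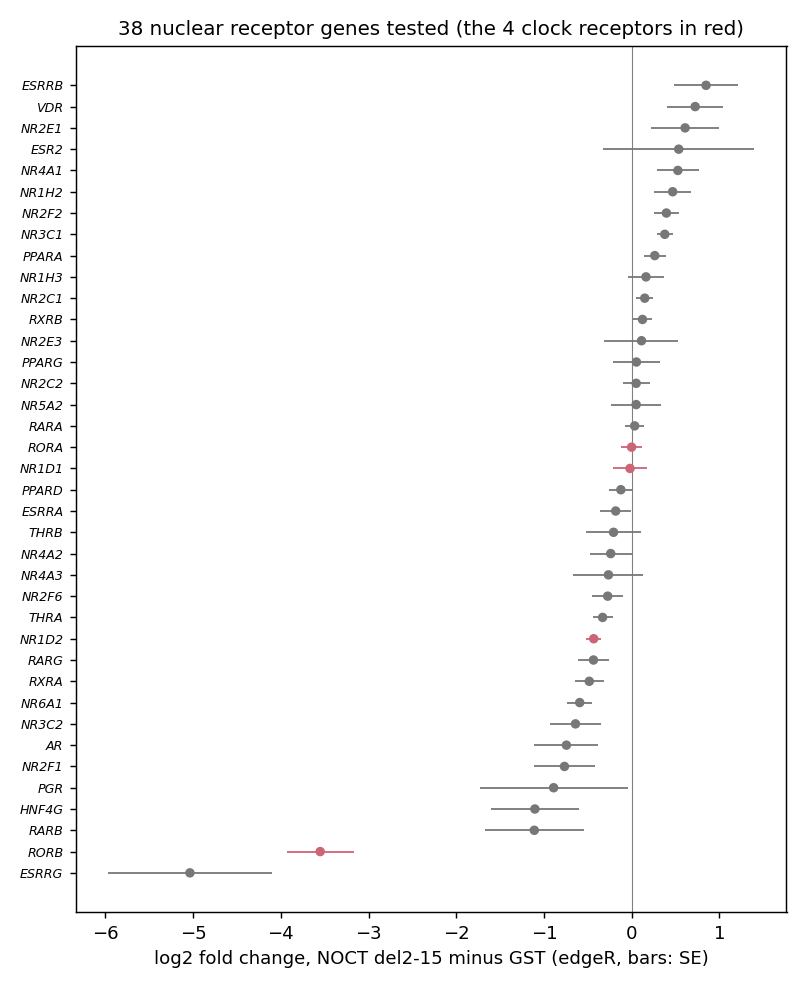
Log2 fold change, NOCT minus GST (horizontal axis, edgeR, bars are SE), of the 38 nuclear receptor genes tested, with the 4 clock receptors in red. RORB (-3.55) and ESRRG (-5.04) lie apart at the low end, NR1D2 is at -0.43, and RORA and NR1D1 are at 0 within their SE.

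Genes known as targets of the shared element were next. Of 26 listed, 11 were tested, 0 were called and 3 had an unadjusted p under 0.05, beside 0.0579% and 13.9% of all genes. The median log2 fold change of the 11 was -0.14. ARNTL, the textbook target, was at 3.84, 4.32 and 3.35 TPM in GST lines 2, 8 and 9 and at 5.04, 4.35 and 3.70 TPM in NOCT lines 4, 11 and 12. The groups overlapped, with a log2 fold change of 0.10 ± 0.17 (SE, adjusted p = 0.828, edgeR). CLOCK, the partner of BMAL1, was at 20.2, 15.6 and 18.6 TPM in GST and 15.2, 15.7 and 14.9 TPM in NOCT lines, with -0.34 ± 0.13 (SE, adjusted p = 0.302, edgeR). HIF1A, the hypoxia factor, was at 148, 119 and 139 TPM in GST and 177, 188 and 170 TPM in NOCT lines, with 0.31 ± 0.12 (SE, adjusted p = 0.309, edgeR). ITPR1, a calcium channel of the endoplasmic reticulum, had 11.5, 9.58 and 9.84 TPM in GST and 7.02, 6.59 and 10.1 TPM in NOCT lines, where NOCT 12 lay among the GST lines. Its log2 fold change was -0.46 ± 0.20 (SE, adjusted p = 0.351, edgeR), and without NOCT 12 it was called, at -0.73. The other 7 tested targets overlapped between the groups. Their log2 fold changes were -0.14 for NPAS2 (a paralogue of CLOCK), -0.15 for CRY1 (a clock repressor), -0.19 for NFIL3 (a D-box repressor), -0.16 for SREBF1 and -0.04 for INSIG2 (sterol and lipid control), 0.30 for CPT1A (fatty acid import into mitochondria) and 0.40 for LPL (lipoprotein lipase). Of the 26 targets, 18 had a promoter window and 5 of these held AGGTCA in at least 1 window (27.8% of genes, beside 16.5% of all 27305 genes with a window). Target windows on 1 chromosome were not searched, and a target there counts as without a match. The all-gene share did include that chromosome, so the 2 shares are not fully alike and 5 is a lowest count. Of single windows, 13.8% held it.

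The clock genes that act on or beside the receptors did not pass either. All 17 clock activators and repressors were tested. Of these, 0 were called and 3 had an unadjusted p under 0.05, beside 0.0579% and 13.9% of all genes. Their median log2 fold change was 0.05. HLF, a D-box activator, was at 1.76, 1.55 and 1.68 TPM in GST and 1.09, 1.33 and 0.904 TPM in NOCT lines. Its groups did not overlap, as for 20% of all genes tested, with -0.68 ± 0.23 (SE, adjusted p = 0.265, edgeR).

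Partners of the receptors were measured in full. Of the 6 genes of the NCoR corepressor complex, 0 were called and 1 had an unadjusted p under 0.05, beside 0.0579% and 13.9% of all genes. That gene, TBL1X, the scaffold of the complex, was at 12.2, 8.88 and 9.97 TPM in GST and 7.40, 6.70 and 6.58 TPM in NOCT lines, with -0.68 ± 0.16 (SE, adjusted p = 0.159, edgeR). HDAC3, its deacetylase, had -0.16 ± 0.11 (SE). Of 10 coactivators 0 were called and 2 had an unadjusted p under 0.05, beside the same shares of all genes. EP300, the acetyltransferase p300, was at 52.5, 55.7 and 57.1 TPM in GST and 79.8, 79.3 and 75.0 TPM in NOCT lines, with 0.42 ± 0.08 (SE, adjusted p = 0.120, edgeR). PPARGC1B, a coactivator of energy metabolism, had -0.44 ± 0.13 (SE, adjusted p = 0.223, edgeR). TBL1X, EP300 and PPARGC1B had groups that did not overlap, as did 20% of all genes tested.

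Enzymes of the receptors' ligands and of their turnover were also uncalled. Of all genes, 0.0579% were called and 13.9% had an unadjusted p under 0.05. Heme is the ligand of REV-ERBs: of 12 tested genes of heme synthesis and breakdown, 0 were called and 0 had an unadjusted p under 0.05, the nearest being the heme oxygenases HMOX2 (-0.26 ± 0.13, SE) and HMOX1 (-0.35 ± 0.24, SE). Sterols bind RORs: of 13 tested sterol enzymes 0 were called and 3 had an unadjusted p under 0.05. CYP7B1, the oxysterol hydroxylase, was at 4.84, 1.36 and 2.27 TPM in GST and 8.79, 7.93 and 6.91 TPM in NOCT lines, with 1.37 ± 0.43 (SE, adjusted p = 0.233, edgeR). Of 12 genes for receptor stability 0 were called and 2 had an unadjusted p under 0.05: SIAH2, a ubiquitin ligase that acts on REV-ERBα, at -0.30 ± 0.12 (SE, adjusted p = 0.318, edgeR), and CSNK1E, a clock kinase, at 0.25 ± 0.10 (SE, adjusted p = 0.344, edgeR).

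**Figure D5:**
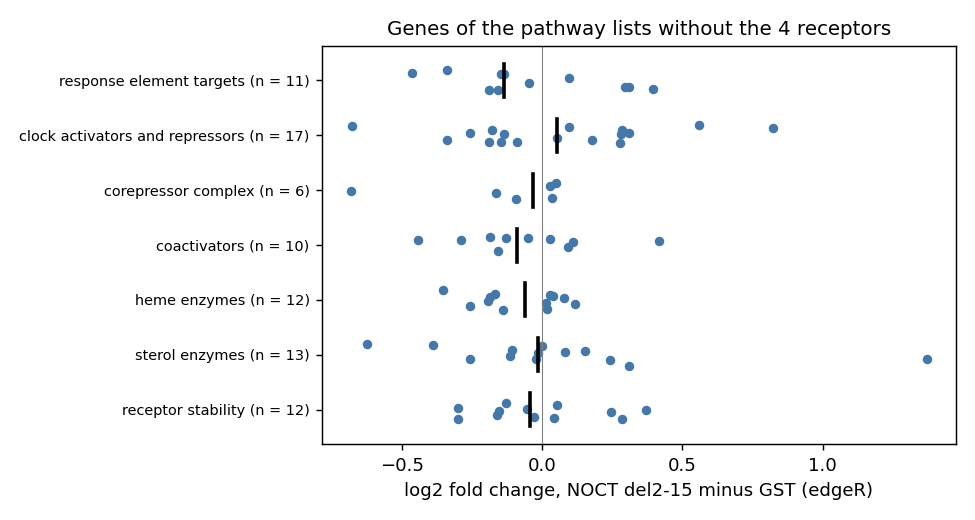
Log2 fold change, NOCT minus GST (horizontal axis, edgeR), of each tested gene of 7 pathway lists without the 4 receptors, with a bar at each list's median. The medians lie between -0.14 and 0.05, and no gene plotted passed the threshold.

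Across the 9 pathway lists, marker lists aside, 110 genes besides the members were tested, 0 were called by edgeR and 21 had an unadjusted p under 0.05, a measure that 13.9% of all genes met. DESeq2 called 6 of them (CYP7B1, EP300, ESRRG, NR3C1, NR6A1 and TBL1X), beside 3.41% of 14918 genes. Leaving out NOCT 12 gave 11 calls, ITPR1 and RARB among them, beside 5.42% of 17882 genes, and leaving out the filter gave 9, beside 2.57% of 34539 genes.

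The genes closest to each receptor over the 6 lines were ranked by Pearson's r of log2 CPM among 14926 genes, as a description over lines that share their libraries and group. NR1D2 and RORB were near the top of each other's ranking, with r = 0.993 and Spearman's rho = 0.943. For both, the 3 lines of each group lie together, so r mostly sets 1 cluster against the other. NAV3, a microtubule-binding protein gene, led both lists, with r = 0.999 to NR1D2 and 0.994 to RORB. WNK2, a kinase gene, followed for NR1D2 (0.996) and ANO5, an anoctamin gene, for RORB (0.992). Of the genes ranked, 2 were closer to NR1D2 than RORB was, and 1 was closer to RORB than NR1D2 was. The lower cut of 0.95 was exceeded by 95 genes with NR1D2 and by 99 with RORB. RORB and NR1D2 were picked with their low NOCT levels known, so their r is set in part by that choice. NR1D1 was closest to RRN3P1 (0.972), HEXIM2 (0.967) and BIRC5 (0.956), and 4 genes exceeded 0.95. RORA was closest to PTP4A1 (0.990), SSX2IP (0.984) and PRKAR2A-AS1 (0.983), and 22 genes exceeded 0.95. The other 5 pairs of members had r between -0.19 and 0.14.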

How the data were processed

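RNA with ERCC spike-in standards, depleted of ribosomal RNA, was sequenced as strand-specific 50 bp libraries, per the labels' protocols. The deposited counts per gene are the authors' raw reads. The submitters' processing notes name FastQC 0.10.1, MultiQC 1.0, cutadapt 1.8.1, Trimmomatic 0.33, STAR 2.5.2b, HTSeq 0.6.1p1, DESeq2 1.16.1 and GRCh38; the annotation release is not given in the sources used here. The TPM values are the authors', per the file headers, and follow from the counts with 1 length per gene, which is the exonic length of GENCODE 29 for the 4 receptors. The authors' deposited comparison holds a mean normalized signal, log2 fold changes, a test score and p-values, per the file headers. Reads of no feature (26.5% to 30.6%), ambiguous reads (2.02% to 2.41%) and reads not aligned uniquely (13.3% to 14.6%) stayed out.

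Counts were fitted in edgeR 4.0.16 (R 4.3.3) with filterByExpr, TMM factors and the quasi-likelihood test over 6 lines, with no covariate, and adjusted by Benjamini-Hochberg over 17261 genes. Log2 CPM used a prior count of 0.5. The fit was tested on simulated data. The 17 alternatives used edgeR, limma 3.58.1 and DESeq2 1.42.0. P-values cover the spread between clonal lines.

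The members and all gene lists were chosen with earlier results of these data known. From each list the text names every gene past the threshold, else the 2 with the smallest p, all element targets with a mean of at least 1 CPM, linked and antisense genes, and the 3 genes closest to each member by r. Gene coordinates are those of GENCODE 29. Of 58395 genes, 58275 matched it. All 4 members matched a RefSeq promoter window (6 windows in all). Some genes that the rule names are not reported here.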

Additional observations from a re-analysis of the deposited data

How the results depend on the processing

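RORB and NR1D2 were negative in all 17 alternatives. With 1 line left out, the log2 fold change ranged from -4.03 to -3.19 for RORB, -0.47 to -0.40 for NR1D2, -0.12 to 0.15 for NR1D1 and -0.04 to 0.07 for RORA. With limma on log2(TPM + 1), RORB was at -2.30 and NR1D2 at -0.33, and on log2(TPM + 0.1) NR1D2 was at -0.35. The all-gene median was 0.07 and 0.08 in these fits. With spike-in totals as library sizes NR1D2 was at -0.28 and RORA at 0.15, beside an all-gene median of 0.15. The 10 genes called in all became 508 with DESeq2, 888 with no filter beyond 1 count, 37 with the neighbour offset, 34 with library totals and no factors, 22 with spike-in totals, 16 with limma voom, and 0 (without GST 9) to 970 (without NOCT 12) with 1 line left out. Genes of the pathway lists called, 0 in edgeR, became 6 with DESeq2, 9 with no filter, and 0 to 11 with 1 line left out. The cause of these shifts was not tested. Depth limits RORB in NOCT lines, at 24 to 71 reads, and its antisense gene, and the low targets were not comparable at this depth. No paired analysis was possible because the groups share no replicate number.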
